A study of Homo sapiens with 52 samples.

Results

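Levels of the messages of 46 genes, which encode translation initiation and elongation factors and proteins that work with them on the ribosome, were taken from soma and neurite libraries of i3Neurons, human neurons grown from stem cells. Members were taken by symbol, through the Ensembl identifiers of the deposited count table, and all 46 were found among its 63241 rows. The list has 5 genes of elongation factor eEF1, the genes of eEF2 and eIF5A, 5 of eIF1 and its partners in start codon selection and subunit joining, 3 of eIF2, 5 of its exchange factor eIF2B, 12 of eIF3, 8 of the eIF4 group, and 6 others (NACA, BTF3, RACK1, TPT1, PABPC1 and ETF1).

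Translation starts when the eIF4 factors bind the cap of a message and recruit the small ribosomal subunit, which carries eIF1, eIF3, eIF5 and the initiator tRNA delivered by eIF2. eIF2B recharges eIF2 with GTP between rounds and is the point at which stress signalling slows initiation. eIF5B joins the subunits, eEF1A brings each aminoacyl-tRNA, and eEF2 moves the ribosome along the message. Many of these messages begin with a run of pyrimidines, the 5′ terminal oligopyrimidine (TOP) motif, which puts their translation under the control of mTOR together with the messages of ribosomal proteins. TOP messages are known as abundant passengers of axons and dendrites, where factors and ribosomal proteins can be made away from the cell body.

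All libraries came from WTC11, an established human induced pluripotent stem cell line, turned into neurons by doxycycline. The neurons were replated at day 3 on inserts with pores of 1 µm, which neurites can cross, and were collected as a soma and a neurite fraction at day 17. Untreated cells, which received no sgRNA, gave 4 libraries per fraction (samples 4 to 7), made with version 2 of a total RNA kit. All other cells carried an sgRNA for CRISPR interference, which silences a gene at its start site, and their libraries were made with version 3 of the kit. In the hnRNPA1 experiment 6 control libraries per fraction had a nontargeting sgRNA and 6 had hnRNPA1 knocked down. In the TDP43 experiment there were 5 control and 5 knockdown libraries per fraction, with 4 in the knockdown soma group once a library of 541 counts was set aside. Whether samples with different numbers are different cultures is not in the labels, and p-values therefore measure the spread between these libraries only, which may be technical.

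Untreated libraries held 2541920 to 4346120 counts in neurites and 5212150 to 10519700 in soma, and those of both knockdown experiments 6257920 to 28902300. Levels are given in CPM (counts per 1e6 counts after TMM scaling) with the SD over libraries, and ratios as log2 values with the standard error of the edgeR fit. The scaling was done within each experiment, so CPM values of different experiments are not on a common scale. HNRNPA1 fell by 1.36 in soma and by 1.55 in neurites on the log2 scale after its knockdown, and TARDBP, the gene of TDP43, fell by 2.50 and 1.48, so the target was low in the libraries labelled as knockdowns. Summed over 8 neuron markers, untreated neurites held 12610 to 15940 CPM and untreated soma 4697 to 5419. The sum of 6 neural progenitor markers was 140 to 191 CPM in untreated neurites and 48.2 to 56.5 in soma, and in the hnRNPA1 experiment it was 418 to 532 CPM in control and 538 to 681 in knockdown neurites. In the TDP43 experiment this sum was 341 to 413 CPM in control and 432 to 527 in knockdown neurites. In soma it was 222 to 242 CPM in control and 302 to 337 in knockdown libraries of the hnRNPA1 experiment. The TDP43 experiment had 172 to 221 CPM in control and 237 to 265 in knockdown soma. Over all groups 6 cycling markers summed to 7.94 to 69.5 CPM, 5 pluripotency markers to 1.54 to 14.7, 7 glial markers to 15.2 to 54.5 and 7 mesenchymal markers to 0.666 to 32.1. HES5 and TWIST1 were at 0 in every untreated neurite library, TDGF1 in every hnRNPA1 knockdown neurite library and LUM in every TDP43 knockdown soma library. Of RNAs that stay in the nucleus, MALAT1, NEAT1 and MEG3 summed to 407 to 602 CPM in untreated neurites and 504 to 823 in soma, and to 261 to 273 and 208 to 249.5 CPM in neurites and soma of the TDP43 controls, so on this scale the neurite fraction was not free of nuclear RNA. The part of other cells or of cell bodies in the values below was not tested. In bulk RNA, fewer cells or neurites and less RNA in each cannot be told apart.

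The scale matters for every ratio between fractions. TMM sets most genes near no change, and on it the median log2 ratio of neurites to soma over all tested genes was −0.21 in untreated cells, while on plain library sizes it was −1.43. The median of the members lay 1.08 above that of all genes with TMM and 1.07 above it on library sizes. In the control cells of the hnRNPA1 experiment the median over all genes was −0.05 with TMM and −0.40 on library sizes, with the members 0.22 and 0.21 above it. The TDP43 controls gave −0.03 and −0.63, with the members 0.27 and 0.26 above. Scaling shifts all genes of a contrast by nearly the same amount, so these distances could hardly differ between the scales. In neurite libraries 7SL, an abundant noncoding RNA of the signal recognition particle, took 17.2 to 45.7% of counts in TDP43 controls and 5.65 to 31.7% after knockdown, and mitochondrially encoded RNA took 10.4 to 14.8% in untreated neurites against 3.40 to 4.22% in soma. The directions below therefore hold relative to most genes, and the called members whose direction turns on library sizes are named for each ratio of neurites to soma.

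The first bases of the transcripts show which members carry a TOP-like start. The 10 bases before and 20 from the annotated start are printed for some members with high or low neurite to soma ratios (RefSeq, GRCh38.p14). Capitals mark a C at the start followed by an unbroken run of C and T bases of which there are at least 4. Members without capitals lack that run. In untreated cells EIF4G3 had a higher ratio than EEF2 but lacks the run, and it is not printed. Also not printed are BTF3 and EIF3K, above EEF2 and with the run, and EIF2B1 and ETF1, below EIF4E and without it.
NACA, chr12:56725280-56725309, minus strand: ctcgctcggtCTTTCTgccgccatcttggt
TPT1, chr13:45341164-45341193, minus strand: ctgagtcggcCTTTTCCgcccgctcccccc
EEF1B2, chr2:206159885-206159914, plus strand: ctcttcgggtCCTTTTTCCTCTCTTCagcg
RACK1, chr5:181243887-181243916, minus strand: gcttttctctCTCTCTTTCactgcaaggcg
EEF1A1, chr6:73521013-73521042, minus strand: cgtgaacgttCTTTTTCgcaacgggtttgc
EEF2, chr19:3985444-3985473, minus strand: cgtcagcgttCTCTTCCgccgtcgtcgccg
EIF2B4, chr2:27370319-27370348, minus strand: tgaccacggcgggcggagcctaggactgag
EIF4E, chr4:98929114-98929143, minus strand: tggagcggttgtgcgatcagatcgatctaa
EIF4A1, chr17:7572815-7572844, plus strand: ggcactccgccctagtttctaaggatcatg

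Such a C start was present in 14 of the 37 members with a start sequence, or 37.84%, and in 1404 of 27305 genes, or 5.142%. A gene with several annotated starts was counted if any of them had it, as for EEF1B2, whose other start begins with A. Ribosomal protein genes held it in 46 of 62, or 74.19%. The 14 members were EEF1A1, EEF1B2, EEF2, EIF2S3, EIF3D, EIF3F, EIF3K, EIF3M, EIF4A2, EIF4B, NACA, BTF3, RACK1 and TPT1. The letters were read on the gene's own strand at annotated starts, and say nothing of the starts used in these neurons. No start sequence was at hand for EEF1A2, EEF1D, EIF2S2, EIF3A, EIF3E, EIF3G, EIF3H, EIF3L and PABPC1.

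Several members cannot be read on their own. EEF1G, the anchoring subunit of eEF1, had 52 counts over all 51 libraries, with 0.07364% of its exon bases free of an overlapping annotated gene, and it was not tested. EIF4A1, the main helicase of the cap complex in most cells, had 4902 counts in all against 169838 for its paralog EIF4A2. Of its exon bases 51.41% lay outside an overlapping gene, and its 13 processed copies held 167% as many counts as the gene. The near-identical copy EIF3CL held 88.15% as many counts as EIF3C, and the 49 copies of EEF1A1 held 44.87% as many as the gene. No label or note says how reads shared between such genes were divided, and values for EIF4A1, EIF3C and EEF1A1 are uncertain for that reason. The remaining 45 members all passed the filter on low counts in every fit.

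In untreated neurons 35 of the 45 tested members were higher in neurites than in soma and 5 were lower (edgeR, adjusted p under 0.05), where 28.7% of all tested genes were higher and 27.8% lower. Their median log2 ratio was 0.87. The 5 lower include EIF4A1, whose call is not independent of the filter on low counts, as given below. On library sizes without TMM 17 were higher and 24 lower, where 11% of all genes were higher and 80.4% lower, and 16 of the 35 turned their direction (EIF1B, EIF2S2, EIF2S3, EIF2B3, EIF2B5, EIF3A, EIF3D, EIF3F, EIF3M, EIF4A2, EIF4B, EIF4G1, EIF4G2, EIF5B, EIF6 and PABPC1). As a share of all counts, which no scaling touches, the 46 members together took 2.07 ± 0.10% in neurites and 1.222 ± 0.08% in soma (SD, n = 4 and 4), and the groups did not overlap.

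The elongation factors were high in neurites, and all 6 that were tested were called higher. eEF1A delivers aminoacyl-tRNA, and eEF1B2 is the subunit that recharges it. EEF1B2 stood at 172, 149, 169 and 231 CPM in soma and at 2279, 2156, 1739 and 2003 CPM in neurites. The lowest neurite library was thus far above the highest soma library, and the log2 ratio was 3.51 ± 0.15 (edgeR adjusted p = 9.2e-15). EEF1A1, with the highest level per length of any member in both fractions (206 CPM per kilobase in soma and 1496 in neurites), stood at 1158, 1074, 1119 and 1551 CPM in soma and at 10285, 9729, 7266 and 8312 CPM in neurites. Its log2 ratio was 2.86 ± 0.16 (edgeR adjusted p = 1.6e-12). EEF1A2, the form that replaces eEF1A1 in mature neurons and muscle, went from 119 ± 18.0 to 458 ± 125 CPM, a log2 ratio of 1.94 ± 0.16. The groups did not overlap for EEF1A1 or EEF1A2. The ratios of the others were 1.98 for EEF1D, the second exchange subunit, 1.88 for EEF2, the translocase, and 1.43 for EIF5A, which frees ribosomes stalled at prolines.

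eIF3 is the scaffold of 12 measured subunits that holds the small subunit complex together, and 11 of the 12 were higher in neurites, all but EIF3B (0.12 ± 0.11). The subunits did not move by one amount. EIF3H, EIF3G, EIF3K and EIF3L had log2 ratios of 3.08, 2.86, 2.46 and 2.45, while EIF3A and EIF3B, core subunits, had 0.68 and 0.12. EIF3E, EIF3I, EIF3C and EIF3M lay between, at 1.63, 1.599, 1.38 and 1.126, and EIF3F and EIF3D were at 0.87 and 0.60. On library sizes 6 of the 12 were higher and 4 lower (EIF3A, EIF3D, EIF3F and EIF3M). EIF3H stood at 129, 114, 118 and 145 CPM in soma and at 1176, 1141, 914 and 1048 CPM in neurites. Part of EIF3L, 58.87% of its exon bases, was free of an overlapping gene.

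In the cap complex the ratios ran from 2.02 for EIF4G3 to −1.81 for EIF4A1. eIF4G is the scaffold that bridges cap and ribosome, and its 3 genes differed. EIF4G3 stood at 467, 394, 412 and 371 CPM in soma and at 1861, 1691, 1491 and 1638 CPM in neurites, with a log2 ratio of 2.02 ± 0.12 (edgeR adjusted p = 2.1e-12). EIF4G2, which lacks the cap-binding part and serves cap-independent initiation, went from 1122 ± 96.4 to 1628 ± 128 CPM (0.54 ± 0.11). EIF4G1 stood at 203, 169, 214 and 166 CPM in soma and at 212, 203, 256 and 233 CPM in neurites, and here the groups overlapped (0.27 ± 0.11, edgeR adjusted p = 0.041). On library sizes EIF4G1 and EIF4G2 were lower in neurites and EIF4G3 stayed higher. EIF4B, a partner of the helicase, was at 0.84 and also turned on library sizes, and EIF4H, a second such partner, was at −0.15 and not called.

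EIF4A1 had the most negative ratio of any member. It stood at 6.94, 4.82, 6.59 and 6.46 CPM in soma and at 3.79, 1.92, 1.66 and 0.407 CPM in neurites, from 1 to 6 counts per neurite library. The groups did not overlap, and the log2 ratio was −1.81 ± 0.39 (edgeR adjusted p = 0.00053). At such counts EIF4A1 passed the filter on low counts only with its soma libraries, where it is higher. The call is therefore not independent of the filter. EIF4A2, the neuronal form of the helicase, stood at 469, 411, 452 and 599 CPM in soma and at 714, 627, 472 and 589 CPM in neurites, with overlapping groups and a log2 ratio of 0.31 ± 0.13 (edgeR adjusted p = 0.049). EIF4E, the cap-binding protein, was lower in neurites (−0.30 ± 0.12, edgeR adjusted p = 0.048), a call lost with RLE scaling, with no filter, in DESeq2 and in limma-voom, and lost in 5 of 8 fits that left out a library (adjusted p = 0.49 without neurite sample 7). The calls of EIF4G1 and EIF4A2 were lost in 3 and 4 of those 8 fits (adjusted p = 0.15 and 0.17 without soma sample 5).

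eIF2B, the exchange factor, went both ways. EIF2B4 stood at 35.4, 31.8, 41.4 and 34.5 CPM in soma and at 21.5, 20.5, 21.2 and 24.4 CPM in neurites, a log2 ratio of −0.70 ± 0.13 (edgeR adjusted p = 0.00011). EIF2B1, whose call was lost without neurite sample 7 (edgeR adjusted p = 0.11), stood at 29.7, 25.7, 28.5 and 23.8 CPM in soma and at 22.8, 19.2, 20.2 and 11.8 CPM in neurites (−0.57 ± 0.16, edgeR adjusted p = 0.0051). In both genes every neurite library was below every soma library. EIF2B3 and EIF2B5 were higher on the TMM scale, at 0.51 and 0.25, and lower on library sizes, with EIF2B5 lost in 3 fits that left out a library, and EIF2B2 was not called (0.35). Of eIF2 itself, EIF2S3 was at 0.77 and EIF2S2 at 0.42, both turned on library sizes, and EIF2S1, the subunit phosphorylated under stress, was not called (−0.04).

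Among the start codon factors EIF1 stood at 268, 234, 243 and 291 CPM in soma and at 859.6, 704, 595 and 722 CPM in neurites, a log2 ratio of 1.47 ± 0.12. Its paralog EIF1B stood at 68.1, 60.7, 58.4 and 82.1 CPM in soma and at 194, 155, 115 and 172 CPM in neurites (1.234 ± 0.14), and was at −0.01 on library sizes. Both genes were without overlap between the fractions. EIF6, which keeps the large subunit apart, was at 0.61 and EIF5B at 0.53, both turned on library sizes, and the call of EIF6 was lost in 4 of 8 fits that left out a library (edgeR adjusted p up to 0.24, without neurite sample 7, where the log2 ratio was 0.38) and with no filter and in limma-voom. EIF5, the partner of eIF2 at the start codon, was not called (0.19).

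High ratios were also found for proteins that meet the new chain or the ribosome itself. NACA, the alpha subunit of the nascent chain complex at the exit tunnel, stood at 263, 256, 286 and 331 CPM in soma and at 3949, 3798, 2666 and 3031 CPM in neurites, a log2 ratio of 3.57 ± 0.15 (edgeR adjusted p = 1.2e-14). TPT1, a classic TOP message, stood at 173, 161, 159 and 219.7 CPM in soma and at 2387, 2289, 1493 and 1658 CPM in neurites (3.46 ± 0.16, edgeR adjusted p = 6.1e-14). RACK1, a ribosome-bound scaffold of signalling, stood at 166, 143, 158 and 183 CPM in soma and at 1765, 1508, 1473 and 1616 CPM in neurites (3.29 ± 0.12, edgeR adjusted p = 1.3e-15). In these 3 genes the lowest neurite library was several times above the highest soma library. BTF3, the partner of NACA, was at 2.50 and PABPC1, which binds the poly(A) tail, at 1.01, while ETF1, the release factor that ends translation, was lower at −0.41, a call lost in 2 of 8 fits that left out a library.

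**Figure D1:**
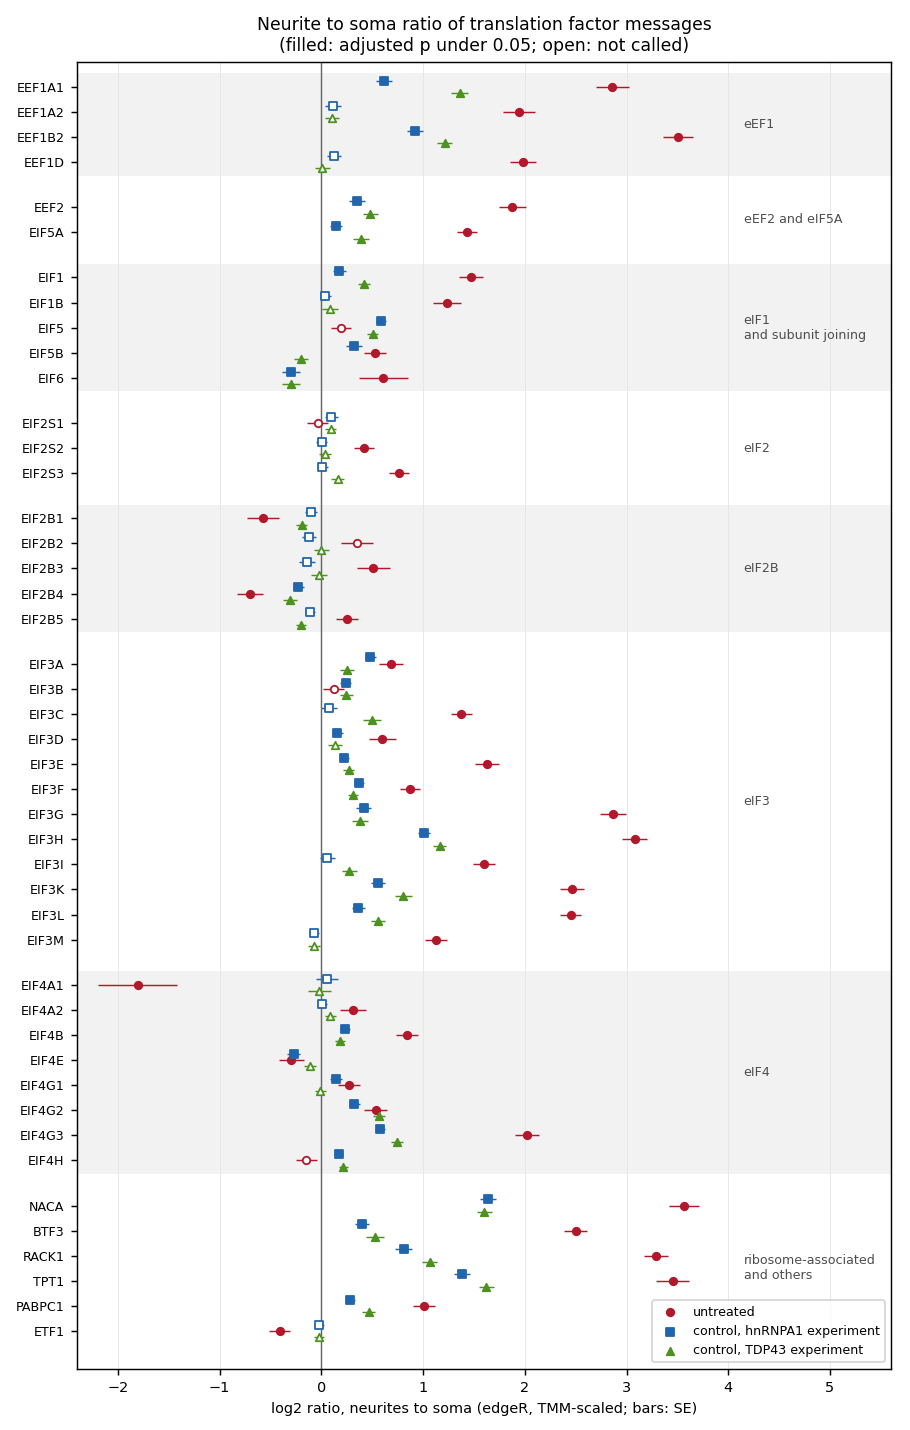
Log2 ratio of neurites to soma (TMM scale) for the 45 tested members, by role, in untreated cells and in the control cells of both experiments; bars give the standard error of the edgeR fit and the vertical line stands at 0, filled points were called at adjusted p under 0.05 and open ones were not. Red circles are untreated cells, blue squares hnRNPA1 controls and green triangles TDP43 controls. In untreated cells 35 members were called higher and 5 lower, 17 and 24 on library sizes, and NACA, EEF1B2 and TPT1 lie farthest to the right.

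**Figure D2:**
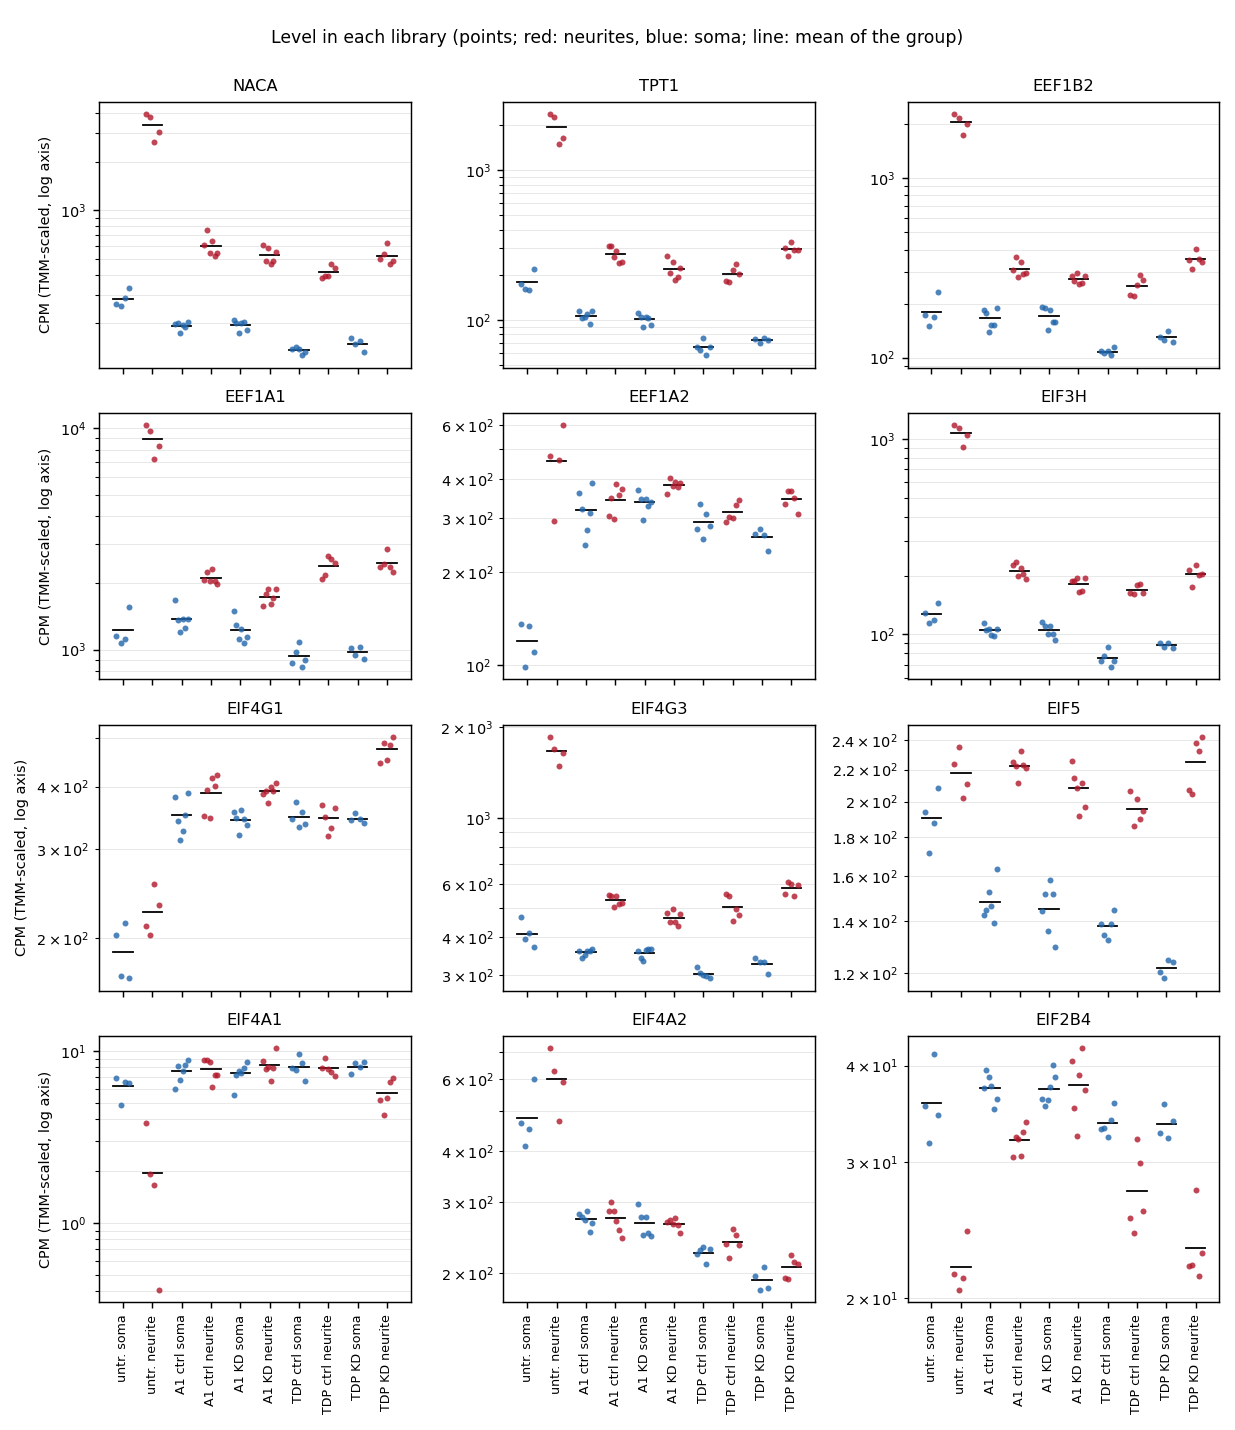
CPM (log axis, TMM-scaled) of 12 members in each of the 51 libraries, 1 point per library, red for neurites and blue for soma, with a line at the group mean; untr. is untreated, A1 the hnRNPA1 and TDP the TDP43 experiment, ctrl control and KD knockdown. NACA, TPT1 and EEF1B2 are higher in neurites of every experiment and farthest apart in untreated cells, while the untreated fractions of EIF4G1 and EIF4A2 overlap.

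The start sequence and the ratio can be set side by side. All 14 members with a C start were higher in untreated neurites, with a median log2 ratio of 2.17 and a range of 0.31 to 3.57. Of the 22 tested members with a start sequence but no C start 12 were higher and 5 lower, with a median of 0.31, and all 9 without a sequence at hand were higher. Of 745 tested protein-coding genes with a C start that were neither members nor ribosomal proteins 287 were higher and 180 lower (median 0.05). Of all 10375 protein-coding genes without it, members and ribosomal proteins included, 3251 were higher and 2740 lower (median −0.12). The 77 ribosomal protein genes, of which 75 were higher, had a median of 3.44, and 74 of them were higher on library sizes. Among the members with a C start EIF2S3, EIF3D, EIF3F, EIF3M, EIF4A2 and EIF4B turned negative on library sizes. Of the 12 tested members usually listed as TOP messages all 12 were higher, with a median of 1.96, against 23 higher and 5 lower of the 33 others (median 0.54). These counts are descriptions, since the lists were drawn up with the ratios known.

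**Figure D3:**
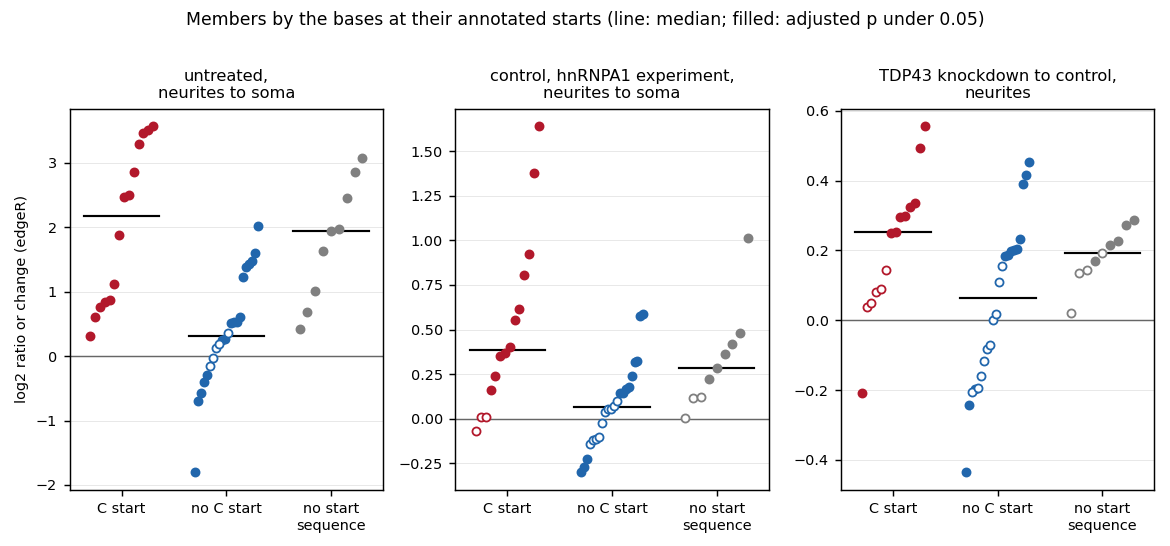
Log2 ratio of neurites to soma in untreated cells (left) and in controls of the hnRNPA1 experiment (middle), and log2 change after TDP43 knockdown in neurites (right), all on the TMM scale, for members with a C start, without one and with no start sequence; each point is 1 gene, filled where called, and the short line is the median. In untreated cells the 14 members with a C start span 0.31 to 3.57, with 6 of them below 0 on library sizes, and the 22 without span −1.81 to 2.02.

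The members lay closer together in the control cells of the knockdown experiments, with log2 ratios from −0.30 to 1.64 in the hnRNPA1 and −0.31 to 1.62 in the TDP43 experiment against −1.81 to 3.57 in untreated cells. The low end of −1.81 was EIF4A1, which stood at 0.407 to 3.79 CPM in untreated neurites. In the hnRNPA1 controls 26 of 45 members were higher in neurites and 3 lower, where 23.5% of all genes were higher and 24.9% lower (48.4% in either direction), with a median log2 ratio of 0.17. In the TDP43 controls 25 were higher and 5 lower, where 24.1% of all genes were higher and 22.3% lower, with a median of 0.24. On library sizes 9 were higher and 24 lower in the first, where 9.65% of all genes were higher and 61.2% lower, and 6 were higher and 27 lower in the second, where 8.59% were higher and 66% lower. Called members that turned negative on library sizes were 12 in the hnRNPA1 controls (EEF2, EIF1, EIF3B, EIF3D, EIF3E, EIF4B, EIF4G1, EIF4G2, EIF4H, EIF5A, EIF5B and PABPC1). The TDP43 controls had 17 (EEF2, EIF1, EIF3A, EIF3B, EIF3C, EIF3E, EIF3F, EIF3G, EIF3I, EIF3L, EIF4B, EIF4G2, EIF4H, EIF5, EIF5A, BTF3 and PABPC1). The share of all counts taken by the members was 1.106 ± 0.05% in neurites and 1.05 ± 0.03% in soma of the hnRNPA1 controls (SD, n = 6 and 6), with overlapping groups. In the TDP43 controls it was 0.909 ± 0.144% and 0.902 ± 0.028% (n = 5 and 5), also overlapping. As a share of counts without 7SL it was 1.234 ± 0.036% in neurites and 1.072 ± 0.028% in soma of the hnRNPA1 controls. In the TDP43 controls this share was 1.253 ± 0.036% and 0.922 ± 0.031%. Without 7SL the fractions did not overlap in either set of controls.

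NACA and TPT1 led in both sets of controls. NACA ran from 175 to 203 CPM in soma (median 197) and from 524 to 756 CPM in neurites (median 577) of the hnRNPA1 controls, a log2 ratio of 1.64 ± 0.08 (edgeR adjusted p = 6.7e-18). In the TDP43 controls it stood at 139, 143, 139.9, 127 and 134 CPM in soma and at 381, 395, 393, 464 and 439 CPM in neurites (1.603 ± 0.08, edgeR adjusted p = 4.5e-16). The fractions did not overlap in either experiment. The neurite level in CPM was below every untreated neurite library, though scaling was done within each experiment. TPT1 ran from 93.6 to 114 CPM in soma (median 107) and from 241 to 314 CPM in neurites (median 274) of the hnRNPA1 controls (1.38 ± 0.08, edgeR adjusted p = 6.6e-16). In the TDP43 controls TPT1 stood at 66.0, 62.6, 75.8, 57.6 and 66.1 CPM in soma and at 181, 180.2, 215, 235 and 202 CPM in neurites (1.62 ± 0.07, edgeR adjusted p = 2.6e-16). TPT1 too was without overlap in both.

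EIF3H came next in the hnRNPA1 controls, from 98.4 to 115 CPM in soma (median 106) and from 191 to 236 CPM in neurites (median 210.5), a log2 ratio of 1.01 ± 0.06, and had 1.165 ± 0.06 in the TDP43 experiment. EEF1A1 came next among TDP43 controls, at 867, 973, 1085, 835 and 898 CPM in soma and at 2089, 2178, 2640.4, 2569.5 and 2468 CPM in neurites (1.36 ± 0.09), against 0.62 ± 0.08 in the hnRNPA1 controls, where it ran from 1206 to 1681 CPM in soma (median 1369) and from 1975 to 2305 in neurites (median 2046). Groups did not overlap for EIF3H or EEF1A1 in either experiment. EEF1B2 had 0.92 and 1.212, and RACK1 0.81 and 1.07, in the hnRNPA1 and TDP43 controls. NACA, TPT1, EIF3H, EEF1A1, EEF1B2 and RACK1 were also called higher on library sizes in both sets of controls.

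The members lower in control neurites were EIF2B4, EIF4E and EIF6 in the hnRNPA1 experiment, and EIF2B1, EIF2B4, EIF2B5, EIF5B and EIF6 in the TDP43 experiment. EIF2B4 ran from 35.1 to 39.5 CPM in soma (median 37.5) and from 30.4 to 33.8 CPM in neurites (median 32.2) of the hnRNPA1 controls, a log2 ratio of −0.23 ± 0.05 (edgeR adjusted p = 0.00092). In the TDP43 controls it stood at 33.1, 33.2, 32.3, 34.0 and 35.7 CPM in soma and at 25.4, 24.3, 32.1, 29.9 and 25.9 CPM in neurites (−0.31 ± 0.07). EIF2B4 thus lay lower in neurites in all 3 sets of cells, without overlap. EIF2B5 stood at 55.8, 60.4, 57.5, 58.3 and 58.4 CPM in soma and at 49.3, 51.0, 50.4, 49.0 and 52.1 CPM in neurites of the TDP43 controls (−0.20 ± 0.05). EIF6 had −0.30 ± 0.09 in both experiments with overlapping groups, from 23.4 to 32.6 CPM in soma and 21.0 to 24.6 CPM in neurites of the hnRNPA1 controls. In the TDP43 controls EIF6 stood at 22.8, 27.9, 21.6, 22.7 and 25.9 CPM in soma and at 16.7, 18.7, 22.3, 22.7 and 19.0 CPM in neurites. EIF4E ran from 67.7 to 83.8 CPM in soma (median 76.8) and from 58.0 to 68.6 CPM in neurites (median 63.5) of the hnRNPA1 controls (−0.27 ± 0.06, edgeR adjusted p = 0.00053), with the groups meeting at their edges.

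Of the 12 eIF3 subunits 9 were higher in the hnRNPA1 and 10 in the TDP43 controls, and none was lower, but on library sizes 2 were higher and 4 lower in the first and 1 and 7 in the second. All 5 genes of eIF2B were called lower on library sizes in untreated cells and in the hnRNPA1 and TDP43 controls, as were 80.4%, 61.2% and 66% of all genes. No subunit of eIF2 was called in either. For EEF1A2 the difference seen in untreated cells was not called: it ran from 245 to 390.4 CPM in soma (median 315) and from 297 to 386 CPM in neurites (median 352) of the hnRNPA1 controls (0.12), and had 0.11 in the TDP43 controls. EIF1 was called in both (0.18 and 0.42) and EIF1B in neither (0.04 and 0.09). EIF4G3 was called at 0.58 and 0.75, EIF4G2 at 0.33 and 0.57, and EIF4G1 at 0.14 in the hnRNPA1 controls alone, a call lost in 8 of 24 fits that left out a library (adjusted p up to 0.096, without control soma sample 3). The difference between experiments was not tested for it. Of these, EIF1, EIF4G1 and EIF4G2 turned negative on library sizes. EIF5 was higher in control neurites, at 0.58 and 0.50, and EIF5B was higher in the hnRNPA1 controls (0.32) and lower in the TDP43 controls (−0.20). On library sizes EIF5 in the TDP43 controls and EIF5B in the hnRNPA1 controls turned.

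The ratio in untreated cells was compared with that of each set of controls in a fit of these 6 groups. It was higher in untreated cells for 25 members and lower for 8 against the hnRNPA1 controls, where 13.1% of all genes were higher and 24% lower, and for 28 and 9 against the TDP43 controls, where 13.5% were higher and 24.1% lower. Both contrasts use the untreated libraries. EEF1B2 differed by 2.32 ± 0.14 and 2.11 ± 0.15 on the log2 scale, RACK1 by 2.22 ± 0.14 and 2.04 ± 0.14, and EIF3G by 2.19 and 2.30, and EEF1A2 by 1.56 ± 0.18 and 1.65 ± 0.18. The ratio was lower in untreated cells for EIF2B4 (−0.74 and −0.58), EIF2B1 (−0.73 and −0.57), EIF5 (−0.66 and −0.50), ETF1 (−0.65 and −0.57) and EIF4H (−0.58 and −0.55). It was also lower for EIF4A1 (−2.14 ± 0.34 and −1.98 ± 0.35), where the untreated neurite libraries stood at only 0.407 to 3.79 CPM. The levels, scaled within each experiment and so not on a common scale, differed by gene. RACK1 was at 162 ± 16.5 CPM in untreated soma. Its untreated neurite level of 1590.3 ± 131 CPM (lowest library 1473) lay above every neurite library of the other experiments (highest 563). EEF1A2 ran from 98.5 to 135 CPM in untreated soma and from 245 to 390.4 CPM in hnRNPA1 control soma. Its neurite ranges overlapped (294 to 598 and 297 to 386 CPM). EIF3G ran from 21.1 to 28.6 CPM and from 54.1 to 74.2 CPM in the same soma groups. Kit version, depth, sgRNA and experiment cannot be told apart in these contrasts.

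Knockdown of hnRNPA1, a nuclear RNA-binding protein of splicing and export, was followed by no called change of a member in soma (edgeR, 0 of 45), where 3.79% of all genes rose and 3.3% fell (7.09% in either direction). An unadjusted p under 0.05 was given by 4 members (EEF1A1, EIF3E, EIF3K and EIF5B), and DESeq2 and limma-voom called 0. Without knockdown soma sample 6 or control soma sample 1, 1 member was called. Their log2 changes ran from −0.16 to 0.16 with a median of −0.02.

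In neurites after hnRNPA1 knockdown 2 members rose and 6 fell, where 8.96% of all genes rose and 7.21% fell. The 6 were TPT1, EEF1A1, EIF3H, EIF4G3, EIF3F and EIF3E. Of them 5 are listed as TOP messages, as is EEF1D, which rose, and that list was drawn up with earlier results known. By start sequence 3 of 14 members with a C start fell, 1 of 22 without one and 2 of 9 with no sequence at hand. Among protein-coding genes that were neither members nor ribosomal proteins 10.3% with a C start fell. Of all protein-coding genes without one, members and ribosomal proteins included, 8.931% fell. TPT1 ran from 241 to 314 CPM in control neurites (median 274) and from 184 to 266 CPM after knockdown (median 214). These ranges overlapped, and the log2 change was −0.34 ± 0.08 (edgeR adjusted p = 0.0029). EEF1A1 ran from 1975 to 2305 CPM in control and from 1575 to 1871 CPM in knockdown neurites (medians 2046 and 1749), without overlap (−0.28 ± 0.08, edgeR adjusted p = 0.012). EIF4G3 ran from 504 to 552 CPM in control and from 437 to 496 CPM in knockdown neurites (medians 534 and 463), also without overlap (−0.19 ± 0.05, edgeR adjusted p = 0.0033). EIF3H ran from 191 to 236 CPM and from 165 to 194 CPM (medians 210.5 and 187), with a slight overlap (−0.22 ± 0.06, edgeR adjusted p = 0.0098). EIF3F and EIF3E had −0.18 and −0.16, and the call of EIF3E was lost in 8 of 24 fits that left out a library (edgeR adjusted p up to 0.15, without control neurite sample 1).

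The members that rose were EEF1D and EIF2B4. EEF1D ran from 38.9 to 51.4 CPM in control and from 50.6 to 60.9 CPM in knockdown neurites (medians 46.5 and 54.5), a log2 change of 0.28 ± 0.08 (edgeR adjusted p = 0.0099). EIF2B4 ran from 30.4 to 33.8 CPM in control and from 32.4 to 42.1 CPM in knockdown neurites (medians 32.2 and 38.0; 0.23 ± 0.06, edgeR adjusted p = 0.007). Both pairs of groups overlapped. Without control neurite sample 3 only EIF2B4 rose (edgeR adjusted p = 0.054 for EEF1D) and 9 fell, and without knockdown neurite sample 3 or 6 there were 4 that rose. On library sizes 0 rose and 17 fell, where 3.05% of all genes rose and 19.3% fell, with EIF2B4 at 0.08. Of the 77 ribosomal protein genes 20 fell and none rose in the same contrast (58 and 0 on library sizes). The sum of the progenitor markers was higher in these knockdown neurites and in knockdown soma too, as given above. The difference between the fractions was called for none of the 45 members, where 0.0454% of all genes were called higher and 0.131% lower (0.177% in all), so a change particular to neurites was not shown. This interaction had an unadjusted p under 0.05 in 6 members (EEF1B2, EIF2B4, EIF3H, EIF3K, EIF4G3 and TPT1), DESeq2 called 1 and limma-voom 0.

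Knockdown of TDP43, an RNA-binding protein that represses cryptic exons, was followed by called changes of members in both fractions. In soma 7 rose and 3 fell, where 9.41% of all genes rose and 9.53% fell, a background close to the members' share, and on library sizes 0 rose and 0 fell (3.52% and 4.1% of all genes). EIF5B, the subunit joining factor, stood at 129, 107, 108, 115 and 114 CPM in control and at 134, 142, 156 and 135 CPM in knockdown soma, without overlap (0.31 ± 0.07, edgeR adjusted p = 0.0019). EEF1B2 stood at 109, 106, 109, 103 and 114 CPM in control and at 131, 125, 141 and 122 CPM in knockdown soma (0.26 ± 0.08, edgeR adjusted p = 0.013). EIF2B3 stood at 19.3, 17.8, 20.1, 17.8 and 18.5 CPM in control and at 21.9, 20.9, 23.7 and 21.9 CPM in knockdown soma (0.24 ± 0.07). In all 3 genes every knockdown library was above every control library. EIF3H (0.22 ± 0.07, overlapping), EIF2B1 (0.22 ± 0.05), EIF2S2 (0.19 ± 0.06) and EIF3E (0.17 ± 0.06) also rose.

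The members that fell in soma were EIF4G2, EIF4A2 and EIF5, where 9.53% of all genes fell. EIF4G2 stood at 853, 909, 904, 822 and 836 CPM in control and at 781, 703, 764 and 711 CPM in knockdown soma (−0.23 ± 0.06, edgeR adjusted p = 0.013). EIF4A2 stood at 223, 228, 232, 211 and 229.8 CPM in control and at 198, 182, 208 and 184 CPM in knockdown soma (−0.22 ± 0.06, edgeR adjusted p = 0.0078). EIF5 stood at 139, 134, 132, 139 and 145 CPM in control and at 120.3, 118, 125 and 124 CPM in knockdown soma (−0.18 ± 0.06, edgeR adjusted p = 0.025). None of these groups overlapped. With the sample number as a block, over the 3 pairs of soma libraries, 3 members rose in place of 7 (EIF2S2, EIF2B3, EIF3E and EIF3H were no longer called), and without knockdown soma sample 3 there were 2, with EEF1B2 at an edgeR adjusted p of 0.072. Leaving out control soma sample 5 gave 3, and leaving out control soma sample 2 or 6 or knockdown soma sample 1 gave 4, while without knockdown soma sample 2 only EIF4A2 fell (adjusted p = 0.057 for EIF4G2 and 0.081 for EIF5). Over the fits that left out a library the calls of EIF2S2, EIF3E, EIF3H, EIF2B3 and EIF5 in soma were lost in 6, 5, 4, 3 and 3.

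In TDP43 knockdown neurites 22 members rose and 4 fell, where 14% of all genes rose and 10.9% fell, with a median log2 change of 0.17 against −0.03 over all genes. On library sizes 6 rose (EEF1B2, EIF2S1, EIF4G1, EIF5B, NACA and TPT1) and none fell, where 8.14% of all genes rose and 3.58% fell. On library sizes without 7SL 5 rose and 10 fell, where 6.24% of all genes rose and 26.1% fell. The count thus rests on the scale: 7SL took 17.2 to 45.7% of counts in control and 5.65 to 31.7% in knockdown neurites. The members took 1.253 ± 0.036% of counts without 7SL in control and 1.248 ± 0.064% in knockdown neurites (SD, n = 5 and 5), with overlapping groups. Mitochondrially encoded RNA took 2.72 to 4.05% of counts in control and 4.58 to 6.30% in knockdown neurites, without overlap, and its part in the result was not tested. With the sample number as a block, where the neurite numbers did not deviate together, 5 rose and 1 fell.

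TPT1 had the largest rise. It stood at 181, 180.2, 215, 235 and 202 CPM in control and at 302, 268, 330.3, 291 and 293 CPM in knockdown neurites, a log2 change of 0.56 ± 0.07 (edgeR adjusted p = 1.6e-06). EEF1B2 stood at 222, 220.3, 254, 287 and 269.7 CPM in control and at 352, 311, 404, 353 and 342 CPM in knockdown neurites (0.49 ± 0.07, edgeR adjusted p = 7.5e-06). EIF4G1 stood at 367, 349, 319, 331 and 363 CPM in control and at 445, 488, 451, 484 and 502 CPM in knockdown neurites (0.45 ± 0.06, edgeR adjusted p = 6.4e-07). Every knockdown library lay above every control library in these 3 genes. EIF5B stood at 105, 105, 88.6, 92.2 and 107 CPM in control and at 137, 122, 119, 137 and 149 CPM in knockdown neurites, also apart (0.42 ± 0.07, edgeR adjusted p = 6.1e-05).

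The rises were spread over the roles. Of eIF3, 7 of 12 subunits rose, from EIF3E at 0.17 to EIF3A at 0.29, with EIF3F at 0.25, EIF3H at 0.27, EIF3I at 0.23, EIF3L at 0.22 and EIF3B at 0.20. On library sizes 0 of the eIF3 subunits were called. EIF2S1 and EIF2S3 of eIF2 rose by 0.39 and 0.25, and EIF4B and EIF4G3 by 0.29 and 0.20. EEF2 had 0.33, NACA 0.34, RACK1 0.30, PABPC1 0.23, EIF5 0.20, EIF1 0.19 and ETF1 0.18. Of the members listed as TOP messages 9 of 12 rose and none fell, and of the others 13 of 33 rose and 4 fell. By start sequence 8 of 14 members with a C start rose and 1 fell (median 0.25), and 9 of 22 without one rose and 3 fell (median 0.06). Over all genes 14% rose and 10.9% fell. Of 760 protein-coding genes with a C start that were neither members nor ribosomal proteins 20.39% rose and 10.39% fell. Of all 10684 protein-coding genes without it, members and ribosomal proteins included, 17.26% rose and 11.1% fell. These counts too are descriptions, with the lists drawn up with results known. Ribosomal protein messages rose in 37 of 77 genes and fell in none, against 34 and 0 on library sizes.

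The 4 that fell, where 10.9% of all genes fell, were EIF4A1, EIF4E, EIF4A2 and EIF2B4. EIF4A1 stood at 7.96, 9.14, 7.80, 7.55 and 7.10 CPM in control and at 5.21, 4.21, 5.33, 6.57 and 6.95 CPM in knockdown neurites (−0.44 ± 0.13, edgeR adjusted p = 0.015). EIF4E stood at 52.0, 50.6, 52.1, 57.3 and 51.4 CPM in control and at 49.0, 40.9, 47.8, 46.5 and 44.2 CPM in knockdown neurites (−0.20 ± 0.06, edgeR adjusted p = 0.017). Neither overlapped. EIF4A2 stood at 237, 219, 257, 248 and 235 CPM in control and at 195, 194, 222, 213 and 211 CPM in knockdown neurites (−0.21 ± 0.06, edgeR adjusted p = 0.0085). EIF2B4 stood at 25.4, 24.3, 32.1, 29.9 and 25.9 CPM in control and at 22.0, 22.1, 27.6, 21.4 and 22.9 CPM in knockdown neurites (−0.24 ± 0.08, edgeR adjusted p = 0.024). EIF4A2 and EIF2B4 overlapped between groups, and EIF4A2 fell in both fractions. Without control neurite sample 5 only 2 fell, with EIF4E at an adjusted p of 0.057, and EIF4A1 was at 0.057 without control neurite sample 2. The call of EIF2B4 was lost in 4 of 19 fits that left out a library, as were those of EIF3B and EIF3I, with 3 for EIF3E and 2 for EIF3L. On library sizes the 4 that fell were not called.

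The effect of TDP43 knockdown differed between neurites and soma for 5 members, 4 higher and 1 lower in neurites, where 5.81% of all genes were higher and 4.67% lower. EIF4G1 had the largest difference, 0.47 ± 0.08 (edgeR adjusted p = 0.00049): its soma libraries were at 345, 372, 332, 356 and 337 CPM in control and 343, 355, 345 and 339 CPM after knockdown, while the neurite libraries moved as given above. TPT1 differed by 0.40 ± 0.11 (edgeR adjusted p = 0.016), with soma at 66.0, 62.6, 75.8, 57.6 and 66.1 CPM in control and 74.5, 69.6, 75.7 and 72.6 CPM after knockdown. EIF5 differed by 0.38 ± 0.08 (edgeR adjusted p = 0.0023), and stood at 207, 186, 201, 189.8 and 195 CPM in control and 207, 204, 238, 233 and 243 CPM in knockdown neurites. On the TMM scale EIF5 was thus called lower in soma and higher in neurites, where its groups overlapped. Neither change of EIF5 was called on library sizes. EIF2S1 differed by 0.25 ± 0.08 (edgeR adjusted p = 0.042), with 33.1, 34.0, 33.4, 31.0 and 31.7 CPM in control soma and 35.5, 33.9, 36.8 and 37.4 CPM in knockdown soma. In neurites EIF2S1 went from 34.3, 32.9, 37.0, 34.2 and 35.8 CPM to 44.3, 41.1, 45.5, 48.2 and 47.5 CPM, without overlap. The call of EIF2S1 was lost in 12 of 19 fits that left out a library (edgeR adjusted p up to 0.094, without knockdown soma sample 2). EIF2B3 differed in the other direction, by −0.40 ± 0.11 (edgeR adjusted p = 0.024), with 16.0, 16.8, 23.4, 19.5 and 18.0 CPM in control and 16.5, 14.2, 16.5, 17.4 and 16.8 CPM in knockdown neurites. Without knockdown soma sample 3 EIF2B3 was no longer called (adjusted p = 0.059), and without knockdown neurite sample 5 or control soma sample 4 the lower ones were 2. On library sizes none of the 5 was called, with the same signs.

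**Figure D4:**
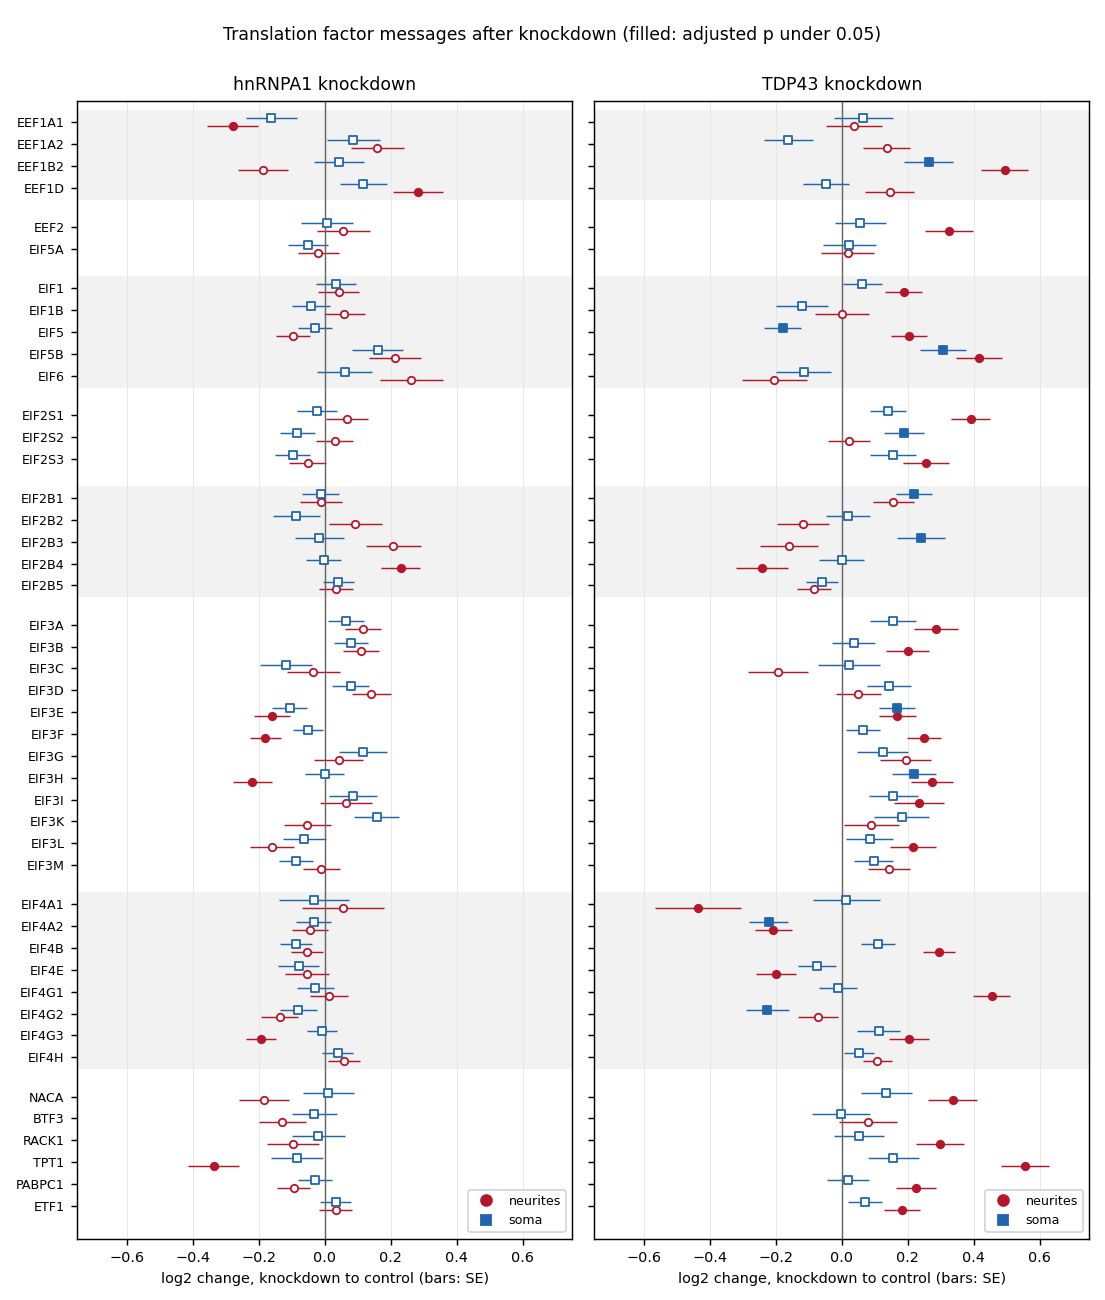
Log2 change after knockdown (TMM scale) for the 45 tested members in soma and in neurites of the hnRNPA1 and TDP43 experiments; filled points were called by edgeR at adjusted p under 0.05 and bars give the standard error. In TDP43 knockdown neurites 22 members were called higher, 6 on library sizes, and TPT1, EEF1B2 and EIF4G1 rise most.

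Neurites and soma were also compared within the knockdown cells, which share no libraries with their controls. After hnRNPA1 knockdown 28 members were higher in neurites and 1 lower, where 19.4% of all genes were higher and 16.4% lower, with a median log2 ratio of 0.19. NACA (1.44) and TPT1 (1.128) were highest and EIF4E (−0.24) was the one lower. After TDP43 knockdown 31 were higher and 7 lower, where 28.7% of all genes were higher and 29% lower, with a median of 0.37. TPT1 (2.02) and NACA (1.804) led, EIF5 was at 0.89, and 4 of the 5 eIF2B genes were lower, EIF2B4 the most (−0.55). EEF1A2, not called in the controls, was at 0.41 here and at −0.14 on library sizes. On library sizes 5 were higher and 30 lower after hnRNPA1 knockdown, where 5.83% of all genes were higher and 67.5% lower, and 7 were higher and 16 lower after TDP43 knockdown, where 9.86% were higher and 61.6% lower. The called members that turned negative there after hnRNPA1 knockdown were 20 (EEF1D, EEF2, EIF1, EIF2S1, EIF3B, EIF3D, EIF3E, EIF3F, EIF3G, EIF3K, EIF3L, EIF4B, EIF4G1, EIF4G2, EIF4G3, EIF4H, EIF5A, EIF5B, BTF3 and PABPC1). After TDP43 knockdown they were 16 (EEF1A2, EEF1D, EIF1B, EIF2S1, EIF2S3, EIF3A, EIF3B, EIF3C, EIF3E, EIF3F, EIF3G, EIF3I, EIF4B, EIF4G1, EIF4H and EIF5A).

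Other genes of translation, outside the 46, were taken from lists drawn up in the same way. Of 23 further factors 9 were higher and 6 lower in untreated neurites (28.7% and 27.8% of all genes), among them EIF3J, a loosely bound partner of eIF3 (1.36), PAIP2, which takes PABPC1 off the tail (1.174), and DHX29, a scanning helicase (0.96). Of 20 tested regulators 10 were higher and 4 lower, led by PDCD4, an inhibitor of eIF4A (1.31), EIF4EBP1, the mTOR-controlled inhibitor of eIF4E (1.226), and EIF2AK4, a kinase of eIF2 (1.03). All 6 called of 7 mitochondrial factors were higher, led by MTRF1 (2.14), TUFM (1.87) and MTIF3 (1.402). On library sizes 0 further factors and 0 regulators were higher and 20 and 17 lower, where 80.4% of all genes were lower, with DHX29 at −0.28 and EIF2AK4 at −0.21, PAIP2 and EIF4EBP1 at −0.07 and −0.0012, and EIF3J and PDCD4 at 0.11 and 0.07, while MTRF1 and TUFM stayed higher. In the hnRNPA1 controls 5 further factors were higher and 8 lower and in the TDP43 controls 5 and 7 on the TMM scale (23.5% and 24.9%, and 24.1% and 22.3%, of all genes). On library sizes they were 0 and 19, and 0 and 21, where 61.2% and 66% of all genes were lower. EIF2AK3, the eIF2 kinase of the endoplasmic reticulum, was the regulator farthest from 0 in both, at 0.89 and 0.63 (0.54 and 0.02 on library sizes). In TDP43 knockdown neurites 8 of 21 regulators rose and 2 fell (14% and 10.9% of all genes), with CYFIP2, a partner of FMR1, at −0.71, RPS6KB2, an S6 kinase, at 0.52 and MKNK2, a kinase of eIF4E, at 0.50, and CYFIP2 was at −0.78 in soma, where RPTOR, a part of mTOR complex 1, was at −0.56 and EIF4EBP1 at 0.46. In hnRNPA1 knockdown neurites 6 of 21 regulators rose and 2 fell (8.96% and 7.21% of all genes), among them EIF2AK2, the eIF2 kinase that senses double-stranded RNA (−0.49), and MKNK2 (0.43). CYFIP2, RPS6KB2, MKNK2, EIF2AK2 and, in soma, RPTOR and EIF4EBP1 were called in the same direction on library sizes.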

How the data were processed

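RNA of soma and neurite fractions was sequenced from 10 ng per library, per the labels' protocols. The authors deposited 1 table of expected counts (estimated counts per gene and library, 52 libraries): the submitters' processing notes name STAR 2.7.11b, Subread 2.0.6 with featureCounts, and the build hg38. Of its nonzero values 81.1% were whole (within 0.005), and all were rounded before fitting. Treatment of strand and of reads with several matches is not stated in the labels or notes. Names came from the identifiers, and exon overlaps from GENCODE release 29.

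Groups came from the sample titles. A TDP43 knockdown soma library of 541 counts was left out, under a minimum of 1e+05 counts, so 51 were used. Each experiment was fitted alone with edgeR 4.0.16 (R 4.3.3; TMM, filterByExpr, quasi-likelihood test), with Benjamini-Hochberg adjustment over all tested genes and a threshold of 0.05. The standard error is the log2 value divided by the square root of F. Untreated cells and both sets of controls were fitted together for the differences between ratios. The fit was tested on simulated data. Start sequences are RefSeq's for GRCh38.p14. Counting error limits low members such as EIF4A1 most.

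All 46 members could be named. Values per library were given for the 3 called members with the largest ratio in each direction, for up to 4 called members per direction after knockdown, and for the eEF1A, eIF1, eIF4A and eIF4G paralogs. The members, lists and tests were chosen with earlier results of these data known. Alternatives were library sizes without TMM, RLE scaling, no filter, DESeq2 1.42.0, limma-voom 3.58.1, a block for the sample number and leaving out each library. Library sizes without 7SL were added after seeing the data. Same-numbered libraries deviated together (every correlation over 0.1) in TDP43 soma, knockdown with control (3 pairs, 0.169 to 0.377), and in TDP43 knockdown, soma with neurites (4 pairs, 0.229 to 0.319), and in no other set.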

Additional observations from a re-analysis of the deposited data

Results flagged for a closer look

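In 8 of 240 groups of libraries, or 3.33%, tested over 23 members, 1 library stood apart from the rest by Dixon's criterion, which chance meets in about 1 of 20 groups. EEF1A1 was highest in hnRNPA1 control soma sample 1, at 1681 CPM. EEF1D stood apart in 3 groups, at 46.1 CPM in TDP43 control soma sample 2, at 52.0 CPM in hnRNPA1 knockdown soma sample 2 and, as the lowest, at 8.79 CPM in untreated soma sample 5. EIF2B3 was lowest in TDP43 knockdown neurite sample 2 (14.2 CPM), and EIF2B4 highest in TDP43 knockdown neurite sample 3 (27.6 CPM). EIF4E reached 57.3 CPM in TDP43 control neurite sample 5, and EIF4G2 1427 CPM in hnRNPA1 control neurite sample 4.

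The effect of TDP43 knockdown differed between neurites and soma, by the interaction term of the edgeR fit, for EIF4G1 (0.47), TPT1 (0.40), EIF5 (0.38), EIF2S1 (0.25) and EIF2B3 (−0.40). The ratio of neurites to soma differed between untreated cells and the hnRNPA1 controls in 25 members with a higher and 8 with a lower ratio in untreated cells, and between untreated cells and the TDP43 controls in 28 and 9.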

How the results depend on the processing

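Scale decided most counts. On library sizes without TMM the members called higher and lower in neurites were 17 and 24 in untreated cells, 9 and 24 in hnRNPA1 controls, 6 and 27 in TDP43 controls, 5 and 30 after hnRNPA1 knockdown and 7 and 16 after TDP43 knockdown. After knockdown those that rose and fell were 0 and 17 in hnRNPA1 neurites, 0 and 0 in TDP43 soma and 6 and 0 in TDP43 neurites, and the TDP43 interaction had 0 and 0. Over all 22014 tested genes that interaction was called higher in 130 and lower in 198. The ratio was lower in untreated cells than in hnRNPA1 controls for 18 members, where 14370 of 29425 tested genes were lower. Without 7SL as well, these counts were 17 and 24, 13 and 14, 12 lower in TDP43 controls, 9 and 13, 16 and 14, 1 lower in hnRNPA1 soma, 1 and 14, 5 and 10 in TDP43 neurites, and 1 and 6 for the TDP43 interaction. Over all genes, in the same order, they were 2049 and 14880 of 18532, 2578 and 9932 of 19960, and 8427 lower of 22071. Next came 1711 and 9902 of 19960, 3326 and 12104 of 22071, 883 lower of 19960, and 994 and 2587 of 19960. TDP43 neurites had 1377 and 5767 of 22071 and the TDP43 interaction 371 and 2832 of 22071. The ratio then was lower in 21 against hnRNPA1 controls, and higher in 16 and lower in 23 against TDP43 controls. Of all 28372 tested genes 15831 were lower in the first, and 1456 were higher and 17855 lower in the second. The distance of the members' median from that of all genes was 1.08 with TMM and 1.07 on library sizes in untreated cells. In TDP43 knockdown neurites it was 0.200 and 0.188. Scaling shifts all genes of a contrast by nearly the same amount, so this distance could hardly move and is no check of the scale.

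In untreated cells these members turned on library sizes, given with and then without 7SL: EIF1B −0.014 and −0.00059, EIF2S2 −0.83 and −0.81, EIF2S3 −0.48 and −0.46, EIF2B3 −0.71 and −0.70, EIF2B5 −0.98 and −0.96, EIF3A −0.56 and −0.55, EIF3D −0.63 and −0.62, EIF3F −0.37 and −0.35, EIF3M −0.12 and −0.11, EIF4A2 −0.94 and −0.93, EIF4B −0.40 and −0.39, EIF4G1 −0.96 and −0.95, EIF4G2 −0.71 and −0.70, EIF5B −0.71 and −0.69, EIF6 −0.61 and −0.60, and PABPC1 −0.24 and −0.22. In hnRNPA1 controls EIF1 was at −0.17 and −0.049, EIF4G1 at −0.21 and −0.084, and, with 7SL, EIF4G2 at −0.026 and EIF5B at −0.043. With 7SL, EIF1, EIF4G2 and EIF5 were at −0.21, −0.043 and −0.11 in TDP43 controls, and EEF1A2 at −0.14 after TDP43 knockdown.

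RLE scaling gave 2 lower members after hnRNPA1 knockdown (neurites to soma), no filter gave 1 that rose in hnRNPA1 knockdown neurites, and DESeq2 called 1 lower hnRNPA1 interaction and 8 higher TDP43 interactions. With the replicate block 3 rose in TDP43 soma, 5 rose and 1 fell in TDP43 neurites, 5 rose in hnRNPA1 neurites, 2 were lower after hnRNPA1 knockdown and 2 had a lower TDP43 interaction. In TDP43 neurites same-numbered control and knockdown libraries did not deviate together (4 pairs, correlations −0.312 to −0.0527). This does not settle whether they were made as pairs. Over these pairs the members' median log2 change was 0.119 in place of 0.168. The causes were not tested.

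Over 81 refits that each left out a library, the members called higher and lower ranged from 31 to 36 and 3 to 5 in untreated cells (3 without neurite sample 4, 6 or 7), 23 to 27 and 3 to 4 in hnRNPA1 controls, 25 to 26 and 4 to 5 in TDP43 controls, 25 to 30 and 1 to 2 after hnRNPA1 and 29 to 31 and 7 to 8 after TDP43 knockdown. After knockdown they were 0 to 1 and 0 in hnRNPA1 soma, 1 to 4 and 5 to 9 in hnRNPA1 neurites, 2 to 7 and 1 to 3 in TDP43 soma and 19 to 23 and 2 to 5 in TDP43 neurites. The interaction gave 0 and 0 for hnRNPA1, and 3 to 5 and 0 to 2 for TDP43. The ratio in untreated cells was higher in 24 to 27 and lower in 8 to 9 against hnRNPA1 controls, and in 26 to 30 and 5 to 9 against TDP43 controls (5 without untreated neurite sample 7). Depth limits the untreated neurite libraries most, where EIF4A1 had 1 to 6 counts.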
